A study of Mus musculus with 4 samples.

Results

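The 1000 strongest loops of an H3K27ac HiChIP data set from mouse embryonic stem cells are described here. A loop is a pair of anchors, which are genomic intervals between which ligated read pairs were counted, and its strength is its count. Each library's counts were divided by the library total, the 4 shares were averaged, and the 1000 pairs of anchors with the highest mean share were taken of 1513030 pairs. These values of the 4 libraries chose the loops, so strength, and what follows from it, is described without a test. The strain difference was not used in the choice, but a loop very high in 1 strain can enter through that strain.

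The cells were 2 lines of C57BL/6J (B6) and 2 lines of DBA/2J (D2), inbred strains with no engineered allele named in the labels, and each line gave 1 library. All 4 lines were grown in 15% serum with LIF, the MEK inhibitor PD0325901 at 1 μM and the GSK3 inhibitor CHIR99021 at 3 μM, fixed for 10 minutes in 1% formaldehyde, and cut with DpnII. A strain difference therefore rests on 2 lines a side, and the spread within a strain is that between its 2 lines. Library totals ranged from 2767882 to 2944258 counts, so raw counts of a loop can be set side by side across libraries only roughly. Close values can change order after scaling, as for Rps26 with Rpl41 below. One technical mark differed: the name given to D2 replicate 1 ends in 10cyc, whereas those of the other 3 libraries end in 8cyc, and the labels do not say what it means.

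H3K27ac, acetylation of lysine on the tail of histone H3, marks active promoters and enhancers, and HiChIP counts contacts between fragments that were ligated in fixed nuclei and pulled down with an antibody to the mark. A strong loop thus needs both the mark and proximity, and contact falls with genomic distance. In embryonic stem cells broad acetylated domains flank genes of pluripotency such as Sox2 and Nanog, and housekeeping promoters carry the mark in nearly all cell types. Coordinates are those of the deposited table on mm10 (GRCm38), where every anchor began and ended at a DpnII site, and a loop is named by protein-coding genes of GENCODE M21 with a start site in its anchors, or as near the closest such gene.

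The strongest loops ran between wide anchors, and most of the promoters in those anchors were rich in CpG. Promoters of 5 genes at the strongest, most connected or most changed loops are given to make that composition visible, from RefSeq on GRCm38.p6, as 300 bases 5′ to 3′ with 250 before the start site and 50 after it, and with each CG dinucleotide in capitals. Src, a tyrosine kinase, lay at the third strongest loop. Wasf2, a WAVE complex subunit of actin assembly, lay at the eighth. Kdm2b, a histone demethylase that binds unmethylated CpG, lay in the anchor with the most strong loops. Slc20a1, a phosphate transporter, lay at a locus where loops were lower in D2, and Apoe, an apolipoprotein, lay in an anchor with 6 of the loops.
Src promoter, chr2:157424043-157424342, plus strand: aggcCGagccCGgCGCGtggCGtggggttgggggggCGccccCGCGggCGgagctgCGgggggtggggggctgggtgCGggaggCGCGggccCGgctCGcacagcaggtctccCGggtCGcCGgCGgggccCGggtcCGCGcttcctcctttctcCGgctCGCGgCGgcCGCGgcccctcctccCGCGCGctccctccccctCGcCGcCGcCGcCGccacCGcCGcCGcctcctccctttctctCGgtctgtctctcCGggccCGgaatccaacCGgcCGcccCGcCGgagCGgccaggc
Wasf2 promoter, chr4:133130383-133130682, plus strand: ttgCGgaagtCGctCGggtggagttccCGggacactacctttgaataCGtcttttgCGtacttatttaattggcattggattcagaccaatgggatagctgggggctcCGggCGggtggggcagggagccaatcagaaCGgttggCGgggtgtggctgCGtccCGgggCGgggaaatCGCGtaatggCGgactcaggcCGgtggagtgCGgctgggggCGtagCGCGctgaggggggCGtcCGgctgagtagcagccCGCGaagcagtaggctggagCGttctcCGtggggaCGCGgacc
Kdm2b promoter, chr5:122900301-122900600, minus strand: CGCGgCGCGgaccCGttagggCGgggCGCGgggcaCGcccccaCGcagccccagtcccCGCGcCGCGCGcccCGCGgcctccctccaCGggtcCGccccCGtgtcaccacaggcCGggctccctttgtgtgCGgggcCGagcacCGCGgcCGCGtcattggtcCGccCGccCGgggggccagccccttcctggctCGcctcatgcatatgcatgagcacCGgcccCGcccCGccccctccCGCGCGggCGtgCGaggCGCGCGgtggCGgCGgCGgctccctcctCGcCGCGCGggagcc
Slc20a1 promoter, chr2:129198523-129198822, plus strand: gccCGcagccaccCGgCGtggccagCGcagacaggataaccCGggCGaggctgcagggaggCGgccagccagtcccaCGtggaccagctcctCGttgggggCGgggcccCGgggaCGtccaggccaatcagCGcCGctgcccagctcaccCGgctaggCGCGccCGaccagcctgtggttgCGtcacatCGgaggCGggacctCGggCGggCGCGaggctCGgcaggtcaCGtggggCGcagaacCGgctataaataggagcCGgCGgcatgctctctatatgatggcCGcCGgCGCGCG
Apoe promoter, chr7:19699139-19699438, minus strand: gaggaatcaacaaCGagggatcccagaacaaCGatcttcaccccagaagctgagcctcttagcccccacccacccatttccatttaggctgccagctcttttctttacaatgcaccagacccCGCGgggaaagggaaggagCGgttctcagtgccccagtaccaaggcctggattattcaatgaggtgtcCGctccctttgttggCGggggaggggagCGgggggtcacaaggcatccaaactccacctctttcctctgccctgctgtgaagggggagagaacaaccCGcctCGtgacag

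These windows held 47 CG dinucleotides for Src, 29 for Wasf2, 49 for Kdm2b, 36 for Slc20a1 and 10 for Apoe. At other start sites in anchors of the set, Kdm2b had 18, 28 and 47, Slc20a1 had 6, and Apoe had 11 and 12, so the printed windows are the richest of Kdm2b and Slc20a1 and the poorest of Apoe. Of the 1830 RefSeq promoters that fell in anchors of the 1000 loops, 71.2% held 10 or more, with a median of 19. The 15246 promoters in all other anchors gave 70.4% and a median of 18, values close to those of the strongest loops. The 14320 promoters outside anchors gave 12.3% and a median of 3, and all promoters of that length gave 44.0%.

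The strongest loop joined the anchor over Slc2a3, which encodes the neuronal-type glucose transporter GLUT3, at chr6:122724390-122753817, to the adjacent anchor at chr6:122755688-122795197. It had 590 and 508 counts in the B6 libraries and 1002 and 700 in the D2 libraries, each pair given here and throughout in the order of replicates 1 and 2. The second, between Rfx2, a transcription factor of ciliary genes, and Acsbg2, an acyl-CoA synthetase gene, had 570 and 461 counts in B6 against 812 and 592 in D2. In both loops D2 replicate 1 was the highest library, and the other D2 library lay above or near the B6 libraries.

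The third strongest loop, from the anchor over Ghrh (growth hormone-releasing hormone) and Manbal to Src, ran the other way, with 770 and 660 counts in B6 against 592 and 381 in D2. The strains did not overlap in this loop. Tbx3, a T-box factor of the naive pluripotency network, held the fifth loop, with 312 and 465 counts in B6 against 872 and 446 in D2. At Tbx3 the 2 D2 libraries lay further apart than the 2 B6 libraries and the strains overlapped.

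Next came a loop to the anchor with Lat (an adaptor of T cell receptor signalling), Spns1 and Nfatc2ip, with 406 and 408 counts in B6 against 705 and 504 in D2. The loop beside Cdc5l, a spliceosome component, had 430 and 395 counts in B6 against 715 and 470 in D2. From Ahdc1 to Wasf2 the counts were 565 and 503 in B6 against 486 and 424 in D2. The loops of Wasf2 and Src were the only ones of the 10 in which each D2 library was under each B6 library. Between Fignl1, a recombination factor, and Grb10, an imprinted adaptor of insulin signalling, 371 and 401 counts in B6 stood against 668 and 534 in D2. This was the one long loop of the 10, with a span (distance between anchor midpoints) of 130.8 kb. The tenth loop ran from Clptm1 and Apoc2 to Apoe and Tomm40, the mitochondrial import pore, with 450 and 363 counts in B6 against 611 and 464 in D2.

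**Figure D1:**
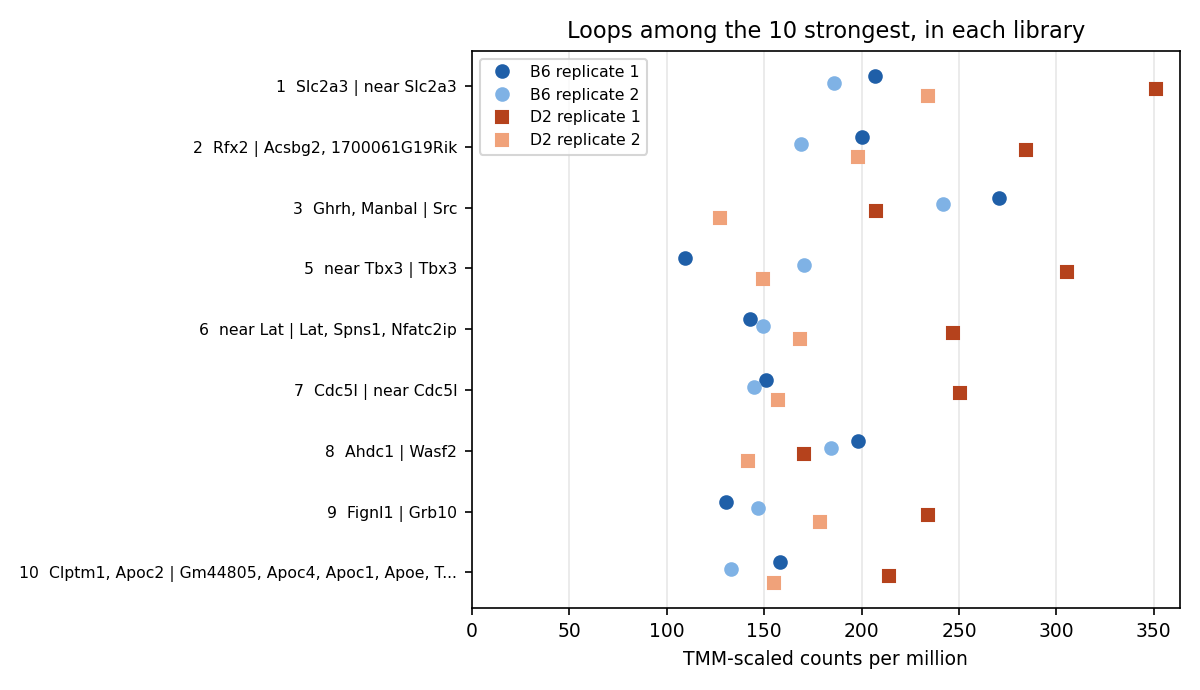
Loops among the 10 strongest in order of rank (rows, named by the genes of the left and right anchor) against TMM-scaled CPM (counts per 1000000 counts, horizontal axis), with 1 point per library, circles for B6 and squares for D2. D2 replicate 1 lies furthest to the right in every loop drawn except those of Src and Wasf2, which are higher in B6.

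None of the 10 passed the test of strain (edgeR's quasi-likelihood test over 108034 loops with at least 20 counts, Benjamini-Hochberg adjusted p of 0.0725 or more, the lowest at Tbx3), while 6 had an unadjusted p under 0.05, and DESeq2's Wald test also called 0. The Src loop did pass, lower in D2, without D2 replicate 1 (log2 fold change -1.01, adjusted p = 0.000344, against -0.61 and 0.151 with it), under scaling on the 1000 loops (-0.80, adjusted p = 4.87e-05), with a loess offset (-0.87, adjusted p = 2.60e-05) and with a minimum of 100 counts (-0.72, adjusted p = 0.0161). Without D2 replicate 2, whose removal leaves D2 replicate 1 to stand for the strain, 6 of the 10 passed, all higher in D2, with Slc2a3 at 0.81 against 0.57, while without D2 replicate 1 it was at 0.25. With no count minimum 9 of the 10 passed, 8 higher and 1 lower. D2 replicate 1 had the highest TMM-scaled CPM in 8 of the 10. In 8 of the 10 loops the anchors were neighbours with a gap under 5 kb between their edges, and 5 had a start site in both anchors.

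The 1000 loops made up 0.0661% of pairs but 6.00% of the counts. Their mean share ran from 38.4 to 246 CPM (counts per 1000000 counts, a 6.40-fold range), with a median of 51.8, and their summed counts from 438 to 2800, with a median of 591. The 10 strongest held 3.20% of these counts and the 100 strongest 20.1%. Each loop had at least 46 counts in every library, and all 1000 had a q-value under 0.01 in all 4 libraries in the authors' deposited files, as did all of the next 1000 loops in rank.

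The share of a library's counts held by the 1000 loops was 5.65% and 5.37% in B6 against 7.16% and 5.87% in D2. Both D2 libraries were above both B6 libraries, and D2 replicate 1 was the highest. B6 averaged 5.51% ± 0.193 and D2 6.52% ± 0.917 (SD, n = 2 each), a difference of 1.01 percentage points that is close to the spread between the D2 lines. An exact permutation test of 2 against 2 cannot give a two-sided p under 0.33, so none is given. The next 1000 loops kept the same order of libraries, with 3.07% and 2.94% in B6 against 3.61% and 3.17% in D2. Loop by loop, D2 replicate 1 had the highest TMM-scaled CPM of the 4 in 623 of the 1000 loops, B6 replicate 1 in 198, D2 replicate 2 in 106 and B6 replicate 2 in 73. The part of the library mark 10cyc in this order was not tested.

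**Figure D2:**
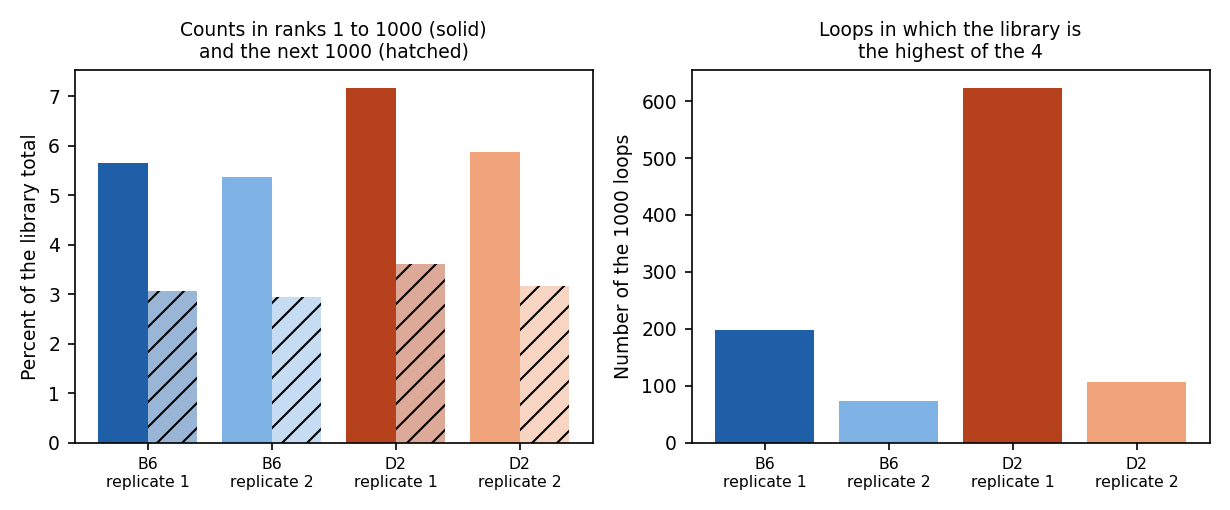
Left, percent of each library's total count (vertical axis) in the 1000 strongest loops (solid bars) and the next 1000 (hatched bars); right, number of the 1000 loops in which each library has the highest TMM-scaled CPM. D2 replicate 1 holds 7.16% of its counts in the 1000 loops and is the highest library in 623 of them.

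The last 5 inside had 438 to 439 summed counts, and the first 5 outside had 437 to 439. The loop from Ahcyl2 to Nrf1 had a mean share of 38.49 CPM, and that from near Tmx2 to Zdhhc5 and Clp1 at rank 1000 had 38.44. Ranked between them were Tspan32 with Cd81 and Tssc4, Pdpk1 with Amdhd2 and Atp6v0c, and a loop near Zfp24. Just outside, mean shares ran from 38.34 to 38.39 CPM and included loops near Thpo, Spats1, Aebp2, and Trafd1 with Erp29.

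Short reach and wide anchors were the plainest features of the set. The median span was 37.9 kb (quartiles 28.1 and 60.8 kb, range 13.4 to 429.6 kb), close to the 37.6 kb of the next 1000 loops and shorter than the 81.2 kb of all loops with at least 20 counts and the 527.4 kb of all pairs. Between the facing edges of the anchors the median gap was 7.86 kb, against 67.1 kb over all loops with at least 20 counts. The gap was under 5 kb in 419 loops (41.9%), against 33.3% in the next 1000 and 11.2% of loops with at least 20 counts. No other anchor lay between the 2 ends in 511 loops (51.1%, against 19.9%). Only 111 loops (11.1%) spanned over 100 kb, against 44.1%, and 14 spanned over 200 kb.

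Anchors of the loops had a median width of 27.8 kb (range 6.95 to 88.5 kb, each loop giving 2 ends), against 21.7 kb in the next 1000 and 10.3 kb over loops with at least 20 counts. A wide anchor collects more counts, since counts were summed over the whole interval. Per product of anchor widths the median was 0.909 counts per square kb, against 0.805 in the next 1000 and 0.417 over loops with at least 20 counts. Ranked by that density in place of the count, only 9 of the 1000 loops would remain in the top 1000 among loops with at least 20 counts, and the median span of that other set was 7.35 kb. Strength here therefore means total contact between 2 domains and not contact per length.

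**Figure D3:**
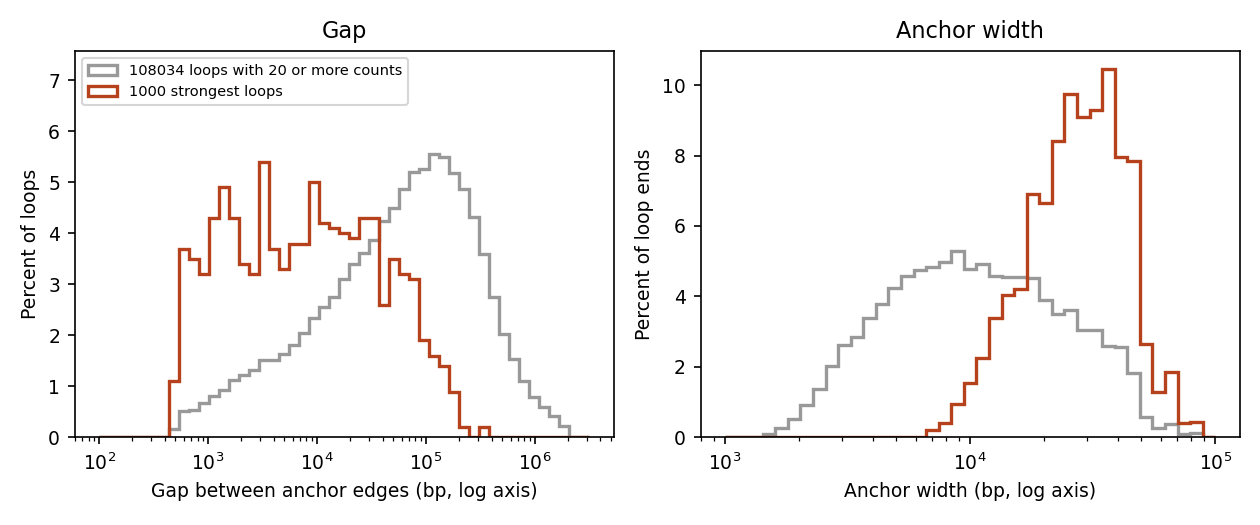
Left, gap between the facing anchor edges in bp on a log axis; right, anchor width in bp on a log axis, 2 ends per loop; the vertical axis is the percent of loops or loop ends in each bin. The 1000 strongest loops (red) have a median gap of 7.86 kb and a median width of 27.8 kb, against 67.1 kb and 10.3 kb over loops with at least 20 counts (grey).

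A protein-coding start site lay in both anchors of 447 loops, in 1 anchor of 413 and in neither of 140. Over loops with at least 20 counts the shares were 22.7%, 46.3% and 31.0%, but their anchors were narrower, and the part of width in this was not tested. Of the 1422 distinct anchors, 64.3% held a start site and 22.1% the start sites of several genes, against 27.8% and 4.81%. In 455 loops both ends overlapped the body of the same protein-coding gene, as at Slc2a3. Among the 111 loops over 100 kb, 49.5% had a start site in both anchors, against 32.6% of loops with at least 20 counts and the same reach.

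The longest loops were of different kinds. At 429.6 kb the longest ran from Atp2a2, the SERCA2 calcium pump, at chr5:122436652-122507521 to Kdm2b at chr5:122869926-122933502. Its counts of 120 and 106 in B6 against 118 and 119 in D2 were nearly level. A loop of 366.8 kb joined an anchor near Tmem17 to the anchor with Zrsr1, an imprinted splicing factor gene, Commd1 and Cct4, with 117 and 98 counts in B6 against 146 and 131 in D2. From Trim28, the corepressor of KRAB zinc finger proteins, to near Lig1, a DNA ligase, the span was 273.9 kb, with 92 and 92 counts in B6 against 165 and 99 in D2. Inside Msi2, an RNA-binding protein gene, a loop of 239.6 kb to Akap1 had 125 and 123 counts in B6 against 107 and 104 in D2. Adjusted p-values of these 4 ranged from 0.404 to 0.994 by the edgeR test, so no strain difference was called in any of them.

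Base composition of the anchors was close to that of other anchors. GC content was 46.3% and CpG density 14.1 per kb, against 45.9% and 14.4 per kb in anchors of loops with at least 20 counts. GATC, the site of DpnII, occurred 2.40 times per kb against 2.26.

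The 1422 anchors were 2.51% of the 56562 anchors and took part in 19.1% of the anchor counts. Of them, 551 were among the 1000 widest anchors and 744 among the 1000 with the most counts. A loop held a median of 20.6% of an anchor's counts (range 4.39% to 66.0%). It was the strongest loop of both its anchors in 553 cases, of 1 anchor in 316 and of neither in 131. A single loop thus usually held a minor share of what its anchors touched.

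Most anchors were used once, and a few were hubs: 1019 took part in 1 of the loops, 284 in 2 and 119 in 3 or more. The Kdm2b anchor had 7, the most, with 2289 and 2122 counts in B6 against 2616 and 2547 in D2 over all its contacts. The anchor over Apoc4, Apoc1, Apoe and Tomm40 at chr7:19678768-19720075 had 6, and its totals were 2257 and 1811 in B6 against 2464 and 2068 in D2. Nrf1, a factor of mitochondrial biogenesis, also had 6, at chr6:30007132-30067164, with 1809 and 1844 in B6 against 1441 and 1503 in D2. Its D2 totals were below both B6 totals, unlike those of the other hubs named here. The anchor at chr6:122755688-122795197, which overlapped the body of Slc2a3, had 5, with 1843 and 1736 in B6 against 3433 and 2297 in D2. The anchor of Naa40, a histone acetyltransferase of the N terminus, and Rcor2, a corepressor of the LSD1 demethylase complex, at chr19:7233355-7279004 was another with 5, with 1871 and 1843 in B6 against 2482 and 2107 in D2.

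Loops that shared anchors formed chains. The 1000 loops fell into 526 groups, of which 327 were single loops and 199 were chains that together held 673 loops. Of the chains, 88 had 2 loops, 80 had 3 to 4, and 31 had 5 or more with 226 loops in all. Most of the 1000 loops thus lay in a chain, and most chains were short. The share in chains depends on where the ranking is cut, and none is given here for the loops ranked next.

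The largest chain covered 926 kb at chr5:122127959-123053987, with 15 loops among 13 anchors (78 pairs possible) from Ccdc63 and Ppp1cc past Atp2a2 to Kdm2b, Orai1, the pore of the store-operated calcium channel, and Morn3. Summed over its loops the counts were 2746 and 2461 in B6 against 2910 and 2987 in D2. Its strongest loop, Anapc7 (a subunit of the anaphase-promoting complex) to Atp2a2, ranked 43 and had 349 and 279 counts in B6 against 350 and 351 in D2. Log2 fold changes, D2 over B6, of its 15 loops lay between -0.08 and 0.28, and none was called.

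Next in size was a chain of 12 loops among 8 anchors within 266 kb at chr7:19567217-19833418, holding Relb and Bcl3 of the NF-kB family, Zfp296, Clptm1, the Apoe cluster and Nectin2. Its counts were 2054 and 1688 in B6 against 2500 and 2097 in D2, and its strongest member was the loop of rank 10 given above. Also with 12 loops and 8 anchors, the chain at chr7:126165662-126523036 ran over 357 kb from Xpo6, the exportin of actin, to Sh2b1, an adaptor of leptin signalling, Tufm and Atxn2l. It had 2055 and 2038 counts in B6 against 3186 and 2514 in D2, and 1 of its loops was called higher in D2. Chromosome 7, with 2 of these 3 chains, held 113 of the 1000 loops (11.3%, against 7.92% of loops with at least 20 counts), and chromosome 13 held 17 (1.70%, against 3.35%).

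**Figure D4:**
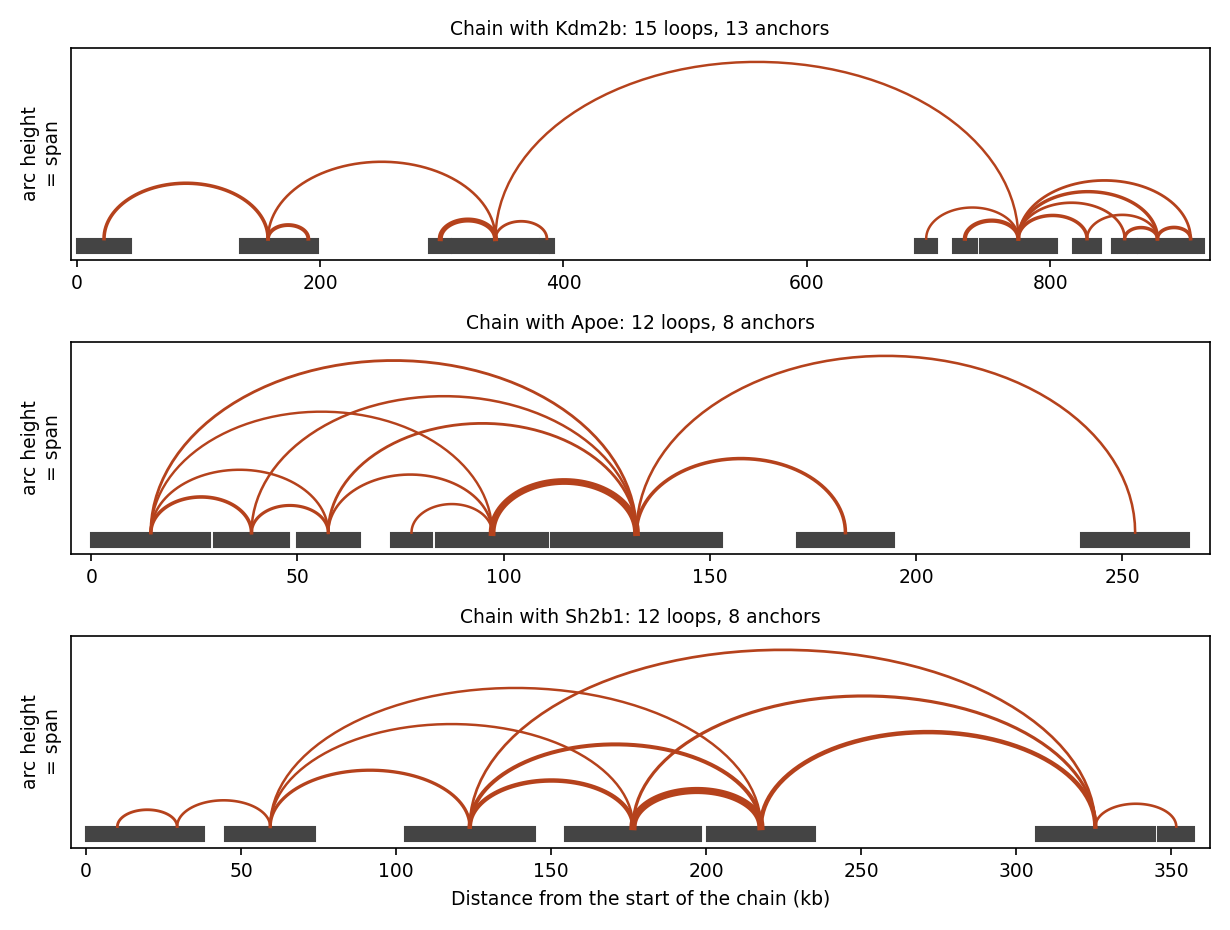
The 3 chains with the most loops, drawn in kb from the start of each chain; grey blocks are anchors to scale, arcs join the midpoints of the anchors of each loop, arc height is in proportion to span within a panel, and line width rises with the mean share. The Kdm2b anchor, at the centre of 7 arcs, links to Atp2a2 across the 429.6 kb loop, and the Apoe anchor is the end of 6 arcs.

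Several genes known from embryonic stem cells lay at these loops. Of 13532 protein-coding genes with an anchor over a start site, 10.1% had a start site in an anchor of the 1000 loops. Of 18 core pluripotency regulators listed, 16 were annotated on the autosomes, and 12 of those had an anchor over a start site. Klf2, Klf5, Esrrb and Tfcp2l1 had no such anchor and were not counted. Of the 12, 7 had a start site in an anchor of the 1000 loops (58.3%), namely Pou5f1, Sox2, Nanog, Klf4, Tbx3, Sall4 and Trim28. Those of the 12 that did not were Zfp42, whose strongest loop ranked 2557, Nr5a2, Prdm14, Stat3 and Smad1. Among other genes known from these cells it was 6 of 14 (42.9%), namely Dppa5a, Fgf4, Mycn, Gdf3, L1td1 and Mir302a. Of signalling genes, 6 of 17 (35.3%) were held, with Nodal and its antagonists Lefty1 and Lefty2, the feedback inhibitors Spry2 and Socs3, and the LIF receptor gene Lifr. The lists were chosen with earlier results of these data known, and no enrichment was tested.

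Of markers of other cell types, fibroblast genes, which would mark feeder cells, had 0 of 6 and Hox genes 0 of 6. Lineage regulators that are normally silent in these cells had 1 of 12, Tbx6, whose anchor it shared with Ypel3 in a loop to Ppp4c and Aldoa. With lists this short, these counts are near the 10.1% of all protein-coding genes. Of genes of chromosome architecture, 1 of 7 was held (14.3%), Wapl, the cohesin release factor, while Ctcf came to rank 1091. Ribosomal protein genes had 20 of 70 (28.6%). The strongest of those was the loop of Rps28 with Rps18, at rank 71 and 103.1 kb, whose second anchor also held Daxx and Tapbp and other genes.

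Sall4, a zinc finger factor, had 236 and 245 counts in B6 against 288 and 205 in D2 in its strongest loop. Pou5f1, which encodes OCT4, had 155 and 164 in B6 against 181 and 128 in D2, in a loop to Cdsn. The strains overlapped in both. Lefty2 to Lefty1, inhibitors of Nodal that lie side by side, had 181 and 202 counts in B6 against 272 and 279 in D2. For Nodal, in a loop to Eif4ebp2, they were 249 and 197 in B6 against 264 and 248 in D2. The Lefty loop did not overlap between strains (log2 fold change 0.46, SE 0.22, adjusted p = 0.369 by the edgeR test), and the Nodal loop did. Mycn, a MYC family factor, had 190 and 160 counts in B6 against 233 and 216 in D2. Fgf4, the autocrine growth factor that primes cells for differentiation, had 114 and 114 in B6 against 139 and 135 in D2. Dppa5a, in a loop to the elongation factor gene Eef1a1, had 150 and 164 in B6 against 212 and 162 in D2. None of Sall4, Pou5f1, Lefty1, Lefty2, Nodal, Mycn, Fgf4 and Dppa5a was called, at adjusted p-values from 0.369 to 0.972.

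Lifr, the LIF receptor gene, had 214 and 236 counts in B6 against 274 and 273 in D2 in a loop within its body, and Socs3, a feedback inhibitor of LIF signalling, had 209 and 171 against 237 and 222 in a loop to Pgs1. Both were slightly higher in D2 with changes of 0.21, about the size of their SE of 0.22. Spry2, an inhibitor of FGF signalling, had 106 and 171 counts in B6 against 128 and 82 in D2. Its fitted change was -0.47 (adjusted p = 0.387), with -0.86 without D2 replicate 1 (adjusted p = 0.0234), -0.83 without B6 replicate 1, -0.18 without D2 replicate 2 and -0.08 without B6 replicate 2. L1td1, an RNA-binding protein gene derived from a transposon, had 139 and 147 counts in B6 against 156 and 149 in D2. Wapl had 134 and 124 in B6 against 158 and 138 in D2. Trim28, in a loop to Zfp324, had 225 and 214 in B6 against 404 and 267 in D2, so that D2 replicate 1 stood apart as it did at Slc2a3. Gdf3, a ligand related to Nodal, had 79 and 88 in B6 against 182 and 92 in D2, again with 1 high library.

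For the ribosomal protein genes, Rps26 and Rpl41 faced each other across a loop of 65.7 kb with 169 and 192 counts in B6 against 291 and 210 in D2. The Rps28 and Rps18 loop had 287 and 260 in B6 against 330 and 259 in D2, and Rpl24 had 168 and 150 in B6 against 252 and 203 in D2. After scaling the strains overlapped for Rps28 with Rps18 and for Rps26 with Rpl41 and did not for Rpl24, and none of these loops was called.

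Of the genes of these lists with a strong loop, 2 of 7 core regulators, 1 of 6 other stem cell genes, 2 of 20 ribosomal protein genes, 0 of 6 signalling genes and 0 of 1 each for architecture and lineage genes were called in their strongest loop, against 1.45% of all loops tested and 6.70% of the 1000 loops. Sox2, a core factor of pluripotency, had 206 and 249 counts in B6 against 465 and 332 in D2 in a loop to the anchor downstream, which ranked 49 (log2 fold change 0.74, SE 0.22, adjusted p = 0.0441). Its libraries did not overlap between strains, but without D2 replicate 1 the change was 0.44 (adjusted p = 0.389), and with a loess offset the adjusted p was 0.0766. Nanog, at rank 14, changed by 0.75 (SE 0.22, adjusted p = 0.0442) and by 0.19 without D2 replicate 1 (adjusted p = 0.845). With a loess offset its adjusted p was 0.0966, and with a replicate block 0.0753. Without B6 replicate 1 neither was called, with changes of 0.55 at Sox2 and 0.56 at Nanog (adjusted p = 0.762 and 0.772). Without B6 replicate 2 the changes were larger, 0.89 and 0.87, and again not called (adjusted p = 0.463 and 0.519). DESeq2's Wald test called neither (adjusted p = 0.210 and 1.00). The ribosomal genes went the other way. Rpl18 had 175 and 174 counts in B6 against 104 and 100 in D2 (log2 fold change -0.84, adjusted p = 0.0205), and Rps15a had 228 and 206 in B6 against 136 and 126 in D2 (-0.79, adjusted p = 0.0298). These 2 genes were named after their values were seen. Like all 23 loops called lower, theirs kept the call with a loess offset and with scaling on the 1000 loops. Their other fits are not given here, and DESeq2's Wald test called only 7 of the 1000 loops lower.

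The called gene of the second list was the miR-302 cluster, microRNAs known from pluripotent cells. It lies in Larp7, and its anchor at chr3:127533787-127560045 looped over 90.2 kb to a place within Ank2, at rank 645. Counts were 78 and 92 in B6 against 223 and 132 in D2 (log2 fold change 1.00, SE 0.23, adjusted p = 0.00267 by the edgeR test). The D2 libraries lay above those of B6 without overlap. Without D2 replicate 1 the change was 0.53 (adjusted p = 0.346), and the call was also lost without B6 replicate 1 (0.449), without B6 replicate 2 (0.156) and by DESeq2's Wald test (0.166). The 3′ arms of miR-302b and miR-302d, from RefSeq on GRCm38.p6 at chr3:127545275-127545297 and chr3:127545665-127545687 on the plus strand, share all bases of the seed (bases 2 to 8, in capitals), and miR-367, the last of the cluster, has another seed.
mmu-miR-302b-3p: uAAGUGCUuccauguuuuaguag
mmu-miR-302d-3p: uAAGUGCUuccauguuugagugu
mmu-miR-367-3p: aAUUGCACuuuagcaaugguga

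The 4 libraries agreed on most but not all of the set. When each library was ranked alone, 1415 loops were among the 1000 strongest of at least 1 library, of which 633 were in all 4, 211 in 3, 264 in 2 and 307 in 1. Of the 1000 loops, 853 and 864 were in the lists of the B6 libraries and 851 and 886 in those of the D2 libraries. The B6 libraries shared 840 of 1000 with each other, the D2 libraries 818, and a B6 and a D2 library 727 to 784. At the very top the order was less stable, with 3 of each library's 10 strongest and 54 of the 100 strongest shared by all 4. At an equal depth of 2500000 counts drawn from each library the number in all 4 was 631.

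Within the set, B6 libraries also followed each other more closely in level. Across the 1000 loops Spearman's rho was 0.859 between B6 libraries, 0.780 between D2 libraries and 0.511 to 0.657 between strains, as a description over loops that share anchors and were chosen on these counts. A ratio within 1.5-fold after scaling was found for 98.3% of loops between the B6 libraries, for 87.3% between the D2 libraries and for 70.1% to 91.1% between strains. The mean squared difference was 2.04 times counting noise between the B6 libraries, 7.19 between the D2 libraries and 4.92 to 12.8 between strains. By the ratio and the squared difference, the 2 D2 lines thus differed from each other by more than D2 replicate 2 did from either B6 line. By Spearman's rho it was the reverse, with 0.780 between the D2 lines. D2 replicate 2 had 0.657 with B6 replicate 1 and 0.656 with B6 replicate 2. With scaling on the 1000 loops themselves, the squared difference between the D2 lines fell to 4.12 times counting noise. That was below the values of D2 replicate 2 with B6 replicate 1 (5.30) and with B6 replicate 2 (4.70).

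By the test 67 of the 1000 loops differed between the strains, and the others were not thereby shown to be alike. Of all 108034 loops tested, 1.45% were called at an adjusted p under 0.05, 0.492% higher and 0.957% lower in D2, and among the 1000 loops it was 6.70%, with 44 higher and 23 lower in D2, while 273 had an unadjusted p under 0.05. The share of calls rose with the count and was 0.721% at 20 to 50 counts, 1.95% at 50 to 100, 3.96% at 100 to 200 and 4.82% from 200 up to 438. The next 1000 loops gave 59 calls, 27 higher and 32 lower. In 852 loops the fitted change was within 1.5-fold, and in 18 it was at least 2-fold, in each of which the loop was called. Strains did not overlap in 570 of the 1000 loops (57.0%), 421 with D2 above and 149 with D2 below, against 41.2% of all loops tested.

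The direction of the set as a whole depended on scaling and on D2 replicate 1. The median log2 fold change was 0.19 over the 1000 loops against 0.02 over all loops tested, and 718 were above 0. With a loess offset on mean abundance the median was 0.03 and the calls were 31 higher and 52 lower; with scaling on the 1000 loops it was 0.01, with 33 higher and 60 lower. Plain library totals gave 58 higher and 14 lower, and totals within each chromosome 52 and 13. Without D2 replicate 1 the median was 0.07, and 47 loops were called, 14 higher and 33 lower. D2 replicate 1 was the highest library in all 44 loops called higher. Without it their median log2 fold change was 0.55, against 0.92 with all libraries. For the 23 called lower it was -0.99 against -0.88. Leaving out either B6 library cut the number of calls further, as given in the last section. Under all 5 other scalings 42 of the 67 kept their call, 29 higher and 13 lower, and all 67 kept their sign in every alternative fit.

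**Figure D5:**
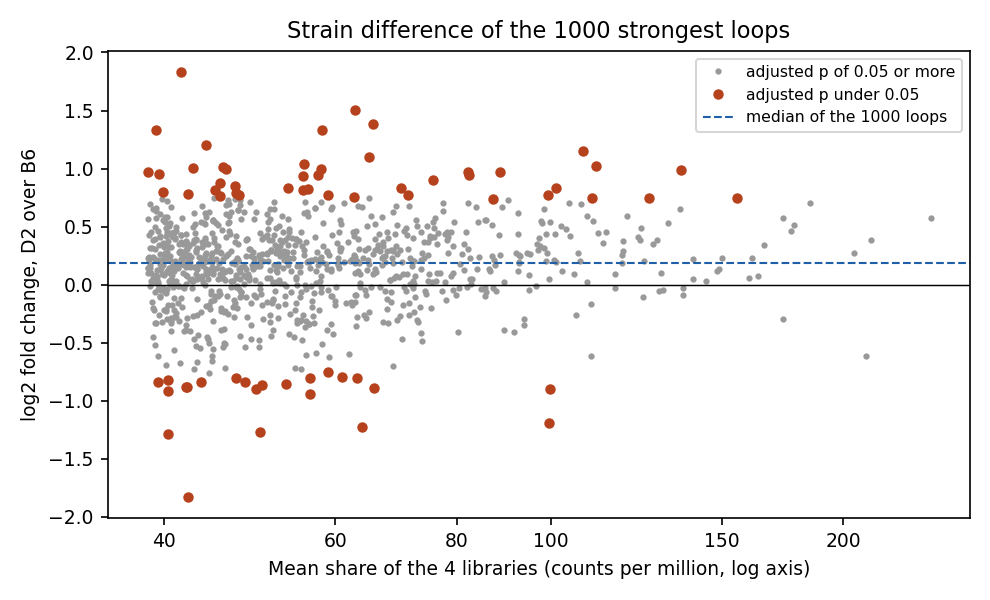
Log2 fold change, D2 over B6 (vertical axis), against the mean share of the 4 libraries in CPM on a log axis (horizontal) for the 1000 loops; filled red points are the 67 with an adjusted p under 0.05 (edgeR) and the dashed line is the median of 0.19. Calls lie at 0.74 and above or at -0.76 and below, and the weaker loops hold the most extreme values, 1.83 and -1.83.

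Some of the called loops entered the set through 1 strain. Ranked on the B6 libraries alone, 883 of the 1000 loops would be in, and on the D2 libraries alone 901. Of the 44 called higher in D2, 20 would not have been among the 1000 of B6, and of the 23 called lower, 16 would not have been among the 1000 of D2. A strong difference near the limit had to come with a high level in 1 strain, so the counts above are not a rate for strong loops of either strain alone.

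The clearest rise was in a loop near Slc44a1, a choline transporter gene, at chr4:53313519-53329366 and chr4:53334010-53356750; the closest protein-coding start site was 83663 bp from its second anchor. It had 46 and 54 counts in B6 against 233 and 139 in D2, and the largest ratio of TMM-scaled CPM among the 4 libraries, 5.06 (log2 fold change 1.83, SE 0.24, adjusted p = 3.06e-10). At Pcmtd1, chr1:7084561-7133336 with the next anchor inside the gene, the counts were 84 and 96 in B6 against 279 and 257 in D2 (1.51, SE 0.23, adjusted p = 1.06e-07). Both D2 libraries of Pcmtd1 were high, so its change was 1.41 without D2 replicate 1, while that of the Slc44a1 loop was 1.37.

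Other rises were at genes with a start site in an anchor. Zbtb24, a zinc finger gene mutated in a human immunodeficiency with centromeric instability, shared an anchor with Mical1, an actin-oxidising enzyme, and their loop into Ak9 had 34.4 and 37.3 TMM-scaled CPM in B6 against 102 and 85.3 in D2 (log2 fold change 1.39, SE 0.22, adjusted p = 1.35e-06). Plekhm3 had 76 and 106 counts in B6 against 285 and 193 in D2 (1.33, SE 0.23, adjusted p = 5.98e-06), with a ratio of 3.74 between the highest and lowest TMM-scaled CPM. The loop of Skp2, an F-box protein of cell cycle ubiquitination, and Lmbrd2 had 65 and 58 counts in B6 against 174 and 150 in D2 (1.33, SE 0.24, adjusted p = 1.65e-05). In each of these loops the lower D2 library was well above the higher B6 library, and without D2 replicate 1 the changes were 1.24, 0.98 and 1.18. The calls of Zbtb24 and Plekhm3 were lost without B6 replicate 1, at changes of 1.29 and 1.04 (adjusted p = 0.0660 and 0.226), and that of Skp2 without B6 replicate 2, at 1.25 (adjusted p = 0.0812).

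Among the loops lower in D2, the one at the predicted gene Gm21915, chr9:40624068-40646405 to chr9:40647422-40674223, fell most. It had 191 and 182 counts in B6 against 51 and 59 in D2 (log2 fold change -1.83, SE 0.24, adjusted p = 2.44e-10), a ratio of 3.75 between the extreme TMM-scaled CPM, and replicates of each strain were nearly equal. Atp1b1, the beta subunit gene of the sodium pump, had 205 and 194 counts in B6 against 100 and 73 in D2 (-1.27, SE 0.23, adjusted p = 2.51e-05). A loop from Abt1, an activator of basal transcription, to Btn2a2, a butyrophilin gene, ranked 72 and had 352 and 425 counts in B6 against 204 and 152 in D2 (-1.19, SE 0.22, adjusted p = 4.71e-05). Without D2 replicate 1 the values were -1.76, -1.55 and -1.46. The call of Abt1 to Btn2a2 was lost without B6 replicate 2 (-1.05, adjusted p = 0.168).

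Some called loops shared a chain. The 67 lay in 55 separate groups, 7 groups held 2 or more, and no group had calls in both directions. At Slc20a1, whose promoter is printed above, all 5 loops of the chain at chr2:129098733-129259590 were lower in D2, from -0.80 to -1.22. The strongest, from the Slc20a1 promoter anchor to an anchor downstream, had 265 and 240 counts in B6 against 110 and 116 in D2 (log2 fold change -1.22, SE 0.22, adjusted p = 3.60e-05). The loops also reached Polr1b, a subunit of RNA polymerase I, with 151 and 138 counts in B6 against 99 and 72 in D2 in a loop of 128.4 kb. Over the chain the counts were 885 and 856 in B6 against 508 and 439 in D2. Loops of a chain share anchors, so they are not separate measurements.

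In the other direction, the chain of Nanog, Slc2a3, Foxj2 and Gdf3 at chr6:122585740-122835494 had 10 loops among 6 anchors (15 pairs possible), with fitted changes from 0.41 to 0.97. Its counts were 2118 and 1990 in B6 against 4058 and 2729 in D2, so D2 replicate 1 was far above D2 replicate 2. Of its 10 loops 3 were called. The largest change was between the anchor at chr6:122755688-122795197, in the body of Slc2a3 but without its start site, and Foxj2, a forkhead gene (0.97, adjusted p = 0.00243 by the edgeR test). That loop had 185 and 123 counts in B6 against 365 and 263 in D2. At chr11:22582089-23302226 a chain of 8 loops over 720 kb with Commd1, Zrsr1, Cct4 (a chaperonin subunit), Fam161a and Xpo1 (the main nuclear exportin) had 1034 and 923 counts in B6 against 1701 and 1413 in D2. There 3 loops were called higher, the strongest next to Fam161a with 166 and 146 counts in B6 against 336 and 290 in D2 (0.94, adjusted p = 0.00363). The D2 libraries lay closer together here than in the Nanog chain. For the Foxj2 and Fam161a loops the other fits are not given. Over the 1000 loops DESeq2's Wald test called 13 higher, against 44 by the edgeR test.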

How the data were processed

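Counts of read pairs per pair of anchors in 4 libraries were taken as deposited by the authors, with no normalization, from the table of the series. The submitters' processing notes name HiC-Pro 2.11.4, mm10 and DESeq2. The deposited files of single libraries hold the same counts (checked) and a value from 0 to 1 that was taken as the authors' q-value, and the caller and its settings are not given in the sources used here. The deposited distance in bp equals that between anchor midpoints. Start sites are those of GENCODE M21 basic. A count of read pairs is not a count of molecules.

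The loops and gene lists were chosen with earlier results of these data known. Loops with at least 20 counts over the libraries were tested with edgeR 4.0.16 (limma 3.58.1, R 4.3.3): quasi-likelihood, TMM, strain only, Benjamini-Hochberg over all 108034 loops, threshold 0.05. Log2 fold changes are D2 over B6 with SE from the F statistic. The SE was 0.22 at both Tbx3 and Slc20a1, although the D2 libraries lay far apart only at Tbx3. An SE is thus not a measure of a loop's own spread between lines. The test was tried on simulated counts with the same spread between libraries for every loop. No simulated library stood apart as D2 replicate 1 did, so that trial does not bear on calls that rest on this library.

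Loops named by rule were the 10 strongest, 5 either side of the limit, the 5 smallest adjusted p in each direction without a shared anchor, the 3 largest chains, the 5 longest, the strongest for up to 6 genes of a list, the 5 busiest anchors and the 3 largest ratios among libraries. Some loops that the rule names are not reported here. Other chains and genes were named after their values were seen. Other scalings, count minimums, DESeq2 1.42.0, a replicate block, other rankings and leaving out each library were the alternatives.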

Additional observations from a re-analysis of the deposited data

How the results depend on the processing

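Ranking the loops on raw sums, 1 strain alone, the median, or without a library kept 883 to 998 of the 1000. Ranking by counts per product of anchor widths shared only 9 with the set, with a median span of 7.35 kb, a median summed anchor width of 8.95 kb, 100 loops with start sites in both anchors and 282 in chains, against 37.9 kb, 58.0 kb, 447 and 673. Loops of at least 20 kb only gave a median span of 39.0 kb and a summed width of 58.7 kb, and D2 libraries only a summed width of 57.6 kb, which ranged from 57.6 to 58.1 kb with each library left out. The 67 calls among the 1000 loops became 20 with the DESeq2 Wald test (13 higher, 7 lower), 103 with a minimum of 100 counts (54 and 49) and 232 with no minimum (199 and 33). With each library left out they ranged from 8 to 219: 8 without B6 replicate 1, 9 without B6 replicate 2, 47 without D2 replicate 1 and 219 without D2 replicate 2, and the cause was not tested. Among the loops named by the rule, 571 of the values under an alternative stayed on the same side of the threshold, 33 passed it newly and 20 no longer passed. In 9 of these loops, each within 0.19 of 0 in the edgeR test, 30 values had the other sign, and none of those passed the threshold in either fit. A replicate block gave 56 calls, 33 higher and 23 lower. The replicate numbers name lines, and the labels do not say that they pair libraries. The correlation of same-numbered deviations from the strain means was -0.000523 over the tested loops and -0.18 over the 1000 strongest.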
